A study of Saccharomyces cerevisiae with 12 samples.

Results

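The genes of the mitochondrial respiratory chain and ATP synthase were followed in budding yeast, Saccharomyces cerevisiae, as a list of 43 genes among the 5449 genes tested. The list held the alternative NADH dehydrogenases, the nuclear-encoded subunits of complexes II, III and IV, cytochrome c, the ATP synthase with its inhibitor proteins, and the transcription activator HAP4. Its members were chosen by name, with earlier results of these data known. Through the gene symbols paired with the probe sets all 43 were found, each with 1 probe set. None of these probe sets was below the background level on any array, and none carried a suffix that marks sequence shared with other transcripts. RNA was measured on 12 Affymetrix arrays, 3 labelled biological replicates for each of 4 groups. All groups were labelled MATa, with the auxotrophic markers his3, leu2, met15 and ura3. The groups were wild type, a strain with NUP60 replaced by the KANR resistance cassette, a strain with ADA2 replaced in the same way, and arrays labelled as the deletion of both. Nup60 belongs to the basket on the nuclear side of the pore complex, and Ada2 is part of the SAGA complex, which acetylates histones. All strains were grown at 30 °C in 50 mL of YEPD, a rich medium, to mid-log phase.

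Respiration passes electrons from NADH and succinate through ubiquinone, complex III and cytochrome c to complex IV, which reduces oxygen, and the ATP synthase uses the resulting proton gradient. Budding yeast has no proton-pumping complex I, and dehydrogenases on either face of the inner mitochondrial membrane take its place. In glucose-grown cells many of these genes are repressed, and they are activated by a complex of HAP2, HAP3, HAP5 and the activating subunit HAP4, whose own transcript is repressed by glucose.

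The deposited intensities were analysed as log2 values, so a difference of 1 is a doubling of the signal. The array medians over all genes lay between 11.21 and 11.28, and 105 to 148 genes per array fell below the background of 5.62, the 95th percentile of probe sets made for another yeast species. Wild-type array 1 and array 3 of the labelled double deletion stood apart in their poly-A spike controls, at 9.02 and 9.20 against 6.71 to 8.02 elsewhere. Arrays 1 and 2 of the labelled double deletion came next, at 7.37 and 8.02. Every array of that group was thus above all arrays of the other groups except wild-type array 1. Leaving out array 3 does not remove this difference between groups, and its part in the results was not tested. NUP60 averaged 12.53 in the wild type and 12.23 in the ada2 strain, against 6.37 in the nup60 strain and 6.20 in the labelled double deletion. ADA2 averaged 10.94 and 10.72 where it should be present, against 4.23 in the ada2 strain and 4.39 on the arrays labelled as the double deletion. The latter arrays went against other labels of that group. URA3 averaged 12.77 there against 4.38 to 4.59 in the other groups, the alpha-cell pheromone gene MF(ALPHA)1 14.51 against 4.78 to 5.19, and the a-cell gene HMRA1 4.38 against 11.17 to 11.47. The a-cell genes MFA1 and BAR1 averaged 10.62 and 9.22 there, but were also low in ada2, at 10.69 and 10.14. Their wild-type means were 13.40 and 13.07. STE2, MFA2 and STE6 averaged 11.69, 10.57 and 10.10 in the labelled double deletion, against 13.50, 13.87 and 11.74 in ada2. Every difference that involves the labelled double deletion therefore also compares these strain features, and the 2 cannot be told apart. With 1 strain per group, the same holds for any other difference between strains.

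Transcripts of nearly the whole list were higher in the nup60 strain than in the wild type, and the labelled double deletion had the highest level of 42 of the 43 genes. Against the wild type, 42 of 43 members rose in the nup60 strain and 0 fell, where 25.1% of all genes rose and 26.2% fell (limma, adjusted p below 0.05). The median difference of the members was 0.37, and that of all genes was -0.02. In the ada2 strain 28 members rose and 3 fell, where 22.7% of all genes rose and 23% fell, with medians of 0.20 for the members and -0.01 for all genes. On the arrays labelled as the double deletion all 43 members rose, where 36.1% of all genes rose and 37.1% fell, with medians of 1.13 and -0.01. A rise of at least 2-fold was found for 6 members in the nup60 strain, where 2.61% of all genes reached it, for 1 in ada2 (1.25% of all genes) and for 24 in the labelled double deletion (7.41%). The 3 arrays of the strain all lay above the 3 of the wild type for 43 members in nup60, where 29.5% of all genes showed this, for 29 in ada2 (27.2%) and for 43 in the labelled double deletion (34.4%). Without the 2 arrays with high spike controls, 43 members rose in nup60 (30.3% of all genes), 28 rose and 3 fell in ada2 (31% and 30.1%), and 43 rose in the labelled double deletion (40.7%), so that calls over all genes rose as well. These 3 comparisons share the wild-type arrays. Because the members were chosen with earlier results of these data known, the counts describe the list and do not test it. Since RNA of whole cultures was measured, more transcript per cell and a larger share of cells with the transcript cannot be told apart.

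**Figure D1:**
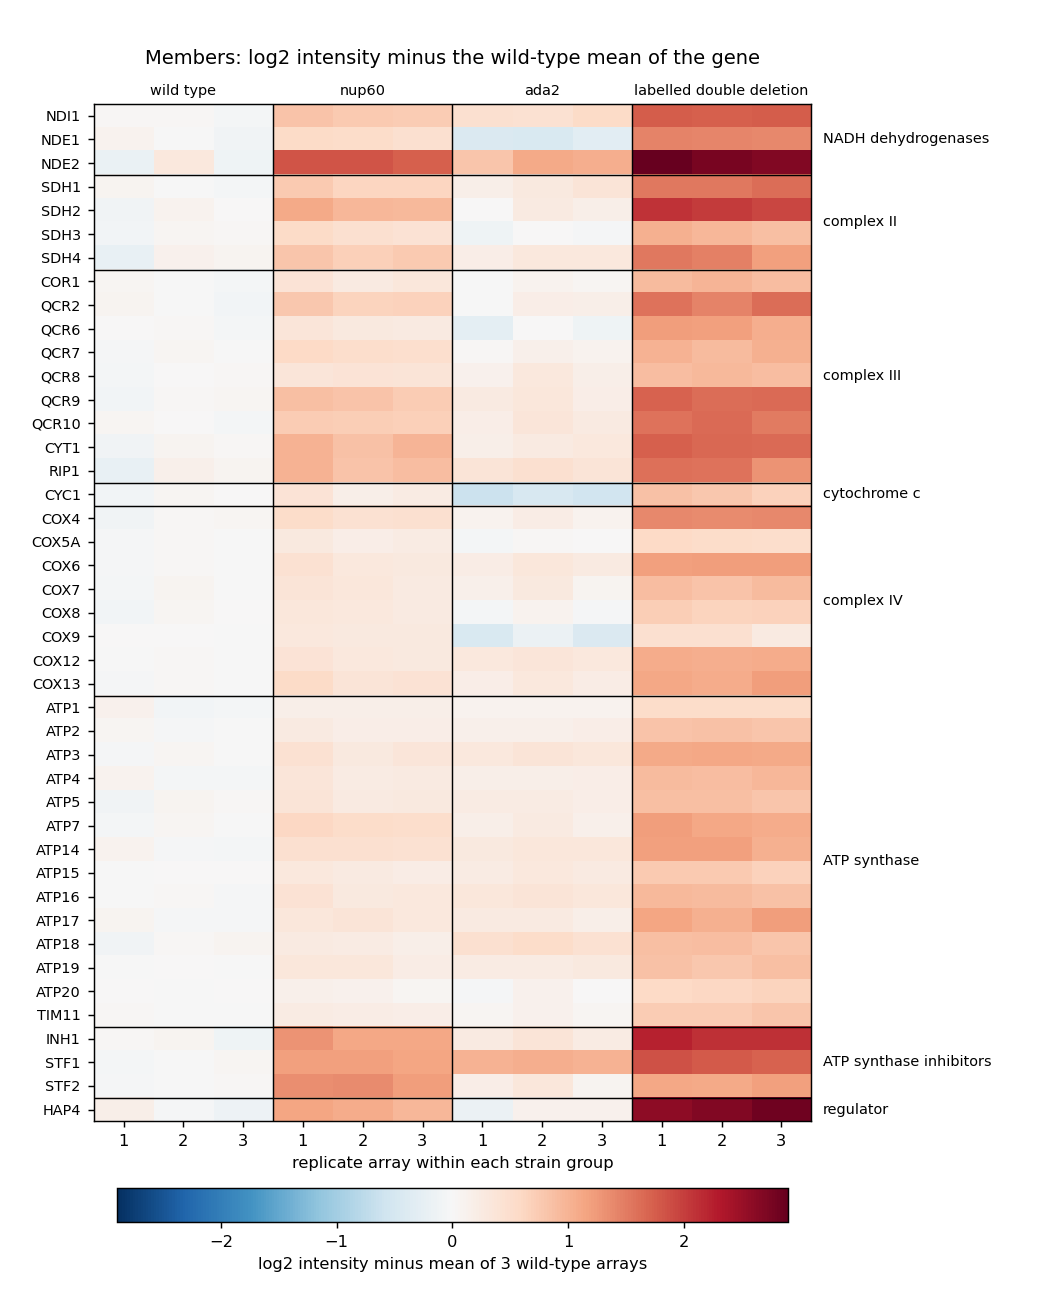
Log2 level of each of the 43 genes on each of the 12 arrays, shown as the difference from the wild-type mean of that gene, with genes in rows by role and arrays in columns by group. The nup60 columns are above the wild-type mean throughout, the ada2 columns are mixed, and the labelled double deletion has the highest group mean in every row but that of STF2.

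HAP4, the activating subunit of the HAP complex, had log2 levels of 10.88, 10.68 and 10.55 in the wild type and 10.54, 10.83 and 10.82 in the ada2 strain. It had 11.85, 11.78 and 11.67 in the nup60 strain, and 13.29, 13.39 and 13.52 on the arrays labelled as the double deletion. The wild-type and ada2 arrays overlapped, the nup60 arrays all lay above both, and those of the labelled double deletion lay above all others. HAP4 rose by 1.06 ± 0.10 in the nup60 strain (2.09-fold; limma adjusted p = 1.17e-05), where errors are limma standard errors with 3 arrays a group. It rose by 2.70 ± 0.10 in the labelled double deletion (6.48-fold; limma adjusted p = 1.83e-09), which placed it 44th of all genes counted from the largest rise. The ada2 strain differed from the wild type by 0.03, with a 95% interval from -0.20 to 0.25 and a limma adjusted p of 0.843. HAP4 thus passed the test in 1 of the single deletion strains, and the direct difference between these strains, nup60 minus ada2, was 1.04 ± 0.10 (limma adjusted p = 9.37e-06).

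**Figure D2:**
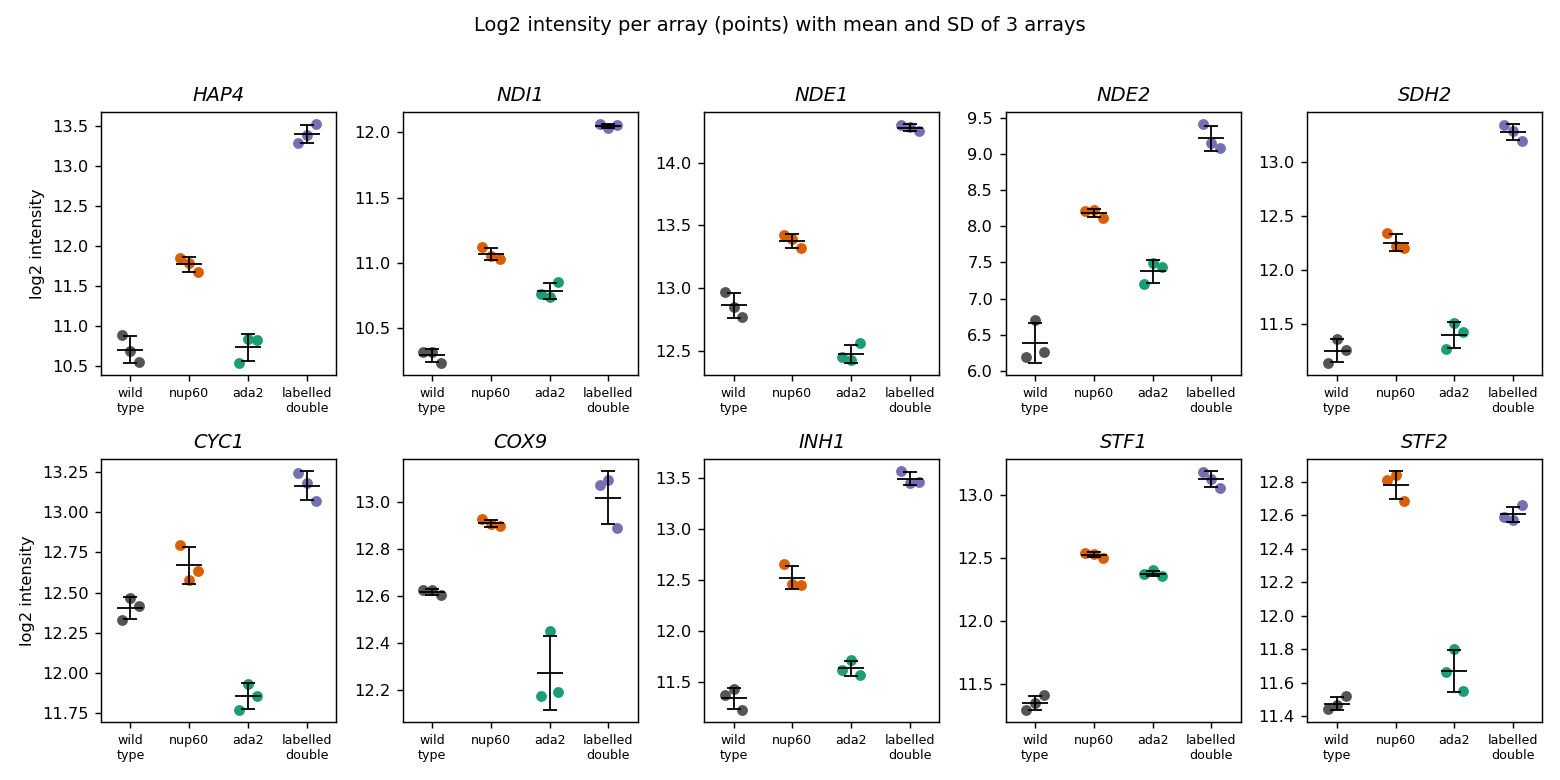
Log2 intensity for 10 of the members, 1 panel per gene with its own scale, with a point for each array and lines at the mean and SD of the 3 arrays of each group. HAP4 overlaps between wild type and ada2 and steps up in nup60 and again in the labelled double deletion, whereas STF2 is highest in nup60.

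HAP2, HAP3 and HAP5 encode the DNA-binding core that HAP4 joins, and their differences from the wild type lay between -0.33 and 0.30. HAP2 rose by 0.20 in nup60 (limma adjusted p = 0.0314) and by 0.30 in ada2, and its difference of 0.05 in the labelled double deletion did not pass. The nup60 call of HAP2 was lost without wild-type array 1, where it was 0.12, or without nup60 array 1 or 3. HAP3 fell by 0.33 in the labelled double deletion and did not pass in either single deletion, but without wild-type array 1 it passed in nup60, at -0.15. HAP5 passed in none of these 3 comparisons, with differences between 0.01 and 0.13. Without array 3 of the labelled double deletion HAP5 passed in nup60, at 0.13, and in the labelled double deletion, at 0.11. Of 13 other transcription regulators of this pathway, HAP2, HAP3 and HAP5 included, 4 rose and 0 fell in nup60, 4 rose and 1 fell in ada2, and 2 rose and 4 fell in the labelled double deletion. Over all genes 25.1% rose and 26.2% fell in nup60, 22.7% and 23% in ada2, and 36.1% and 37.1% in the labelled double deletion. Without the arrays with high spike controls the counts of regulators were 6 and 2, 8 and 1, and 5 and 4. Calls over all genes rose there as well. The 2 regulators that rose in the labelled double deletion on all arrays were CAT8 and ROX1. CAT8, an activator of genes for growth on carbon sources other than glucose, rose by 0.98 ± 0.11 in nup60, by 1.90 ± 0.11 in ada2 and by 2.63 ± 0.11 in the labelled double deletion. ROX1, a repressor of hypoxic genes, rose by 0.34, 0.57 and 0.64.

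All 3 alternative NADH dehydrogenases rose in the nup60 strain and in the labelled double deletion, while in ada2 they moved in opposite directions. NDE2, an enzyme of the outer face of the inner membrane, had levels of 6.20, 6.71 and 6.27 in the wild type and 7.20, 7.49 and 7.44 in ada2. It had 8.21, 8.22 and 8.11 in nup60 and 9.41, 9.15 and 9.08 in the labelled double deletion. The 4 groups of NDE2 did not overlap, and its rise of 1.79 ± 0.13 in nup60 (3.46-fold; limma adjusted p = 1.55e-06) was the largest of the list there. Its rise of 2.82 ± 0.13 in the labelled double deletion (7.08-fold) was also the largest of the list. The wild-type arrays of NDE2 lay not far above the background of 5.62, and the effect of this on its differences was not tested. NDE1, the related enzyme of the same face, had levels of 12.97, 12.85 and 12.77 in the wild type and 12.45, 12.42 and 12.56 in ada2. It had 13.43, 13.39 and 13.32 in nup60 and 14.30, 14.28 and 14.25 in the labelled double deletion. NDE1 was therefore lowest in ada2, with no overlap between groups. It fell by 0.39 ± 0.055 in ada2 (limma adjusted p = 0.000223), rose by 0.51 ± 0.055 in nup60, and rose by 1.42 ± 0.055 in the labelled double deletion. NDI1, which faces the matrix, rose by 0.78 ± 0.041 in nup60, by 0.49 ± 0.041 in ada2 and by 1.76 ± 0.041 in the labelled double deletion, where its lowest array stood at 12.03 against a wild-type maximum of 10.32.

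The 4 subunits of complex II, succinate dehydrogenase, rose in the nup60 strain with a median of 0.71 and in the labelled double deletion with a median of 1.48. SDH2, the iron-sulfur subunit, had levels of 11.14, 11.35 and 11.26 in the wild type, 11.27, 11.50 and 11.42 in ada2, and 12.34, 12.22 and 12.20 in nup60. The labelled double deletion had 13.34, 13.28 and 13.20. The ada2 arrays of SDH2 overlapped those of the wild type, and the difference of 0.15 ± 0.074 did not pass (limma adjusted p = 0.131). It passed without ada2 array 1, at 0.21. SDH2 rose by 1.0 ± 0.074 in nup60 (limma adjusted p = 1.44e-06) and by 2.02 ± 0.074 in the labelled double deletion (4.07-fold). SDH1, the flavoprotein subunit, averaged 10.76 in the wild type and rose by 0.67 in nup60, by 0.28 in ada2 and by 1.56 in the labelled double deletion. SDH4, a membrane anchor, had levels of 12.11, 12.44 and 12.40 in the wild type, 13.13, 13.01 and 13.07 in nup60, and 12.51, 12.62 and 12.62 in ada2. Wild-type array 1 was the low one of its group. The ada2 difference of SDH4, 0.27 ± 0.098, passed narrowly (limma adjusted p = 0.0449), and was 0.17 without wild-type array 1 (limma adjusted p = 0.137). That call was also lost on leaving out any one nup60 array, any one ada2 array, or array 2 of the labelled double deletion. SDH3, the other membrane anchor, did not pass in ada2, with a difference of -0.05.

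Complex III, which passes electrons from ubiquinone to cytochrome c, had 9 members, and all 9 rose in nup60, with a median of 0.70 and a range from 0.30 to 0.95. All 9 rose in the labelled double deletion, with a median of 1.50. In ada2, 5 rose, 0 fell and COR1, QCR2, QCR6 and QCR7 did not pass. QCR7 passed after a second quantile normalization, at 0.13, and QCR2 with array weights, at 0.16. CYT1, cytochrome c1, had levels of 11.90, 12.08 and 12.04 in the wild type, 12.17, 12.26 and 12.31 in ada2, 13.02, 12.86 and 12.98 in nup60, and 13.74, 13.68 and 13.65 in the labelled double deletion. The groups of CYT1 did not overlap, and the gene had the largest rise of the complex in nup60, 0.95 ± 0.060 (limma adjusted p = 3.98e-07), and in the labelled double deletion, 1.68 ± 0.060. QCR6, an acidic subunit beside cytochrome c1, had the smallest rise of the complex in nup60. Its levels were 12.61, 12.63 and 12.54 in the wild type, 12.31, 12.61 and 12.47 in ada2, 12.95, 12.87 and 12.85 in nup60, and 13.80, 13.77 and 13.64 in the labelled double deletion. QCR6 rose by 0.30 in nup60 and by 1.14 in the labelled double deletion, and its difference of -0.13 in ada2 did not pass (limma adjusted p = 0.155). Without ada2 array 2 that difference was -0.20 and passed.

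RIP1, the Rieske iron-sulfur protein of complex III, could be read on 4 probe sets, because the array carries control probe sets for the beginning, the middle and the end of its transcript. On its gene probe set the levels were 11.41, 11.78 and 11.71 in the wild type, 12.63, 12.47 and 12.52 in nup60, and 13.24, 13.22 and 12.94 in the labelled double deletion. The ada2 arrays averaged 12.03 ± 0.05 (SD, n = 3), with 12.09 as their highest value. Wild-type array 1 and array 3 of the labelled double deletion, the arrays with high spike controls, were the lowest of their groups. RIP1 rose by 0.91 ± 0.10 in nup60, by 0.40 ± 0.10 in ada2 and by 1.50 ± 0.10 in the labelled double deletion. The control probe sets, which were not tested, gave nup60 differences of 0.84 at the beginning, 0.89 in the middle and 0.77 at the end. They gave 0.35, 0.31 and 0.31 in ada2, and 1.40, 1.44 and 1.33 in the labelled double deletion. The sign and order of the differences were thus alike on all 4 probe sets. The end of the transcript read 0.34 to 0.60 above the beginning on the 12 arrays, and the control probes of actin, another readout of RNA integrity, gave 0.29 to 0.36.

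**Figure D3:**
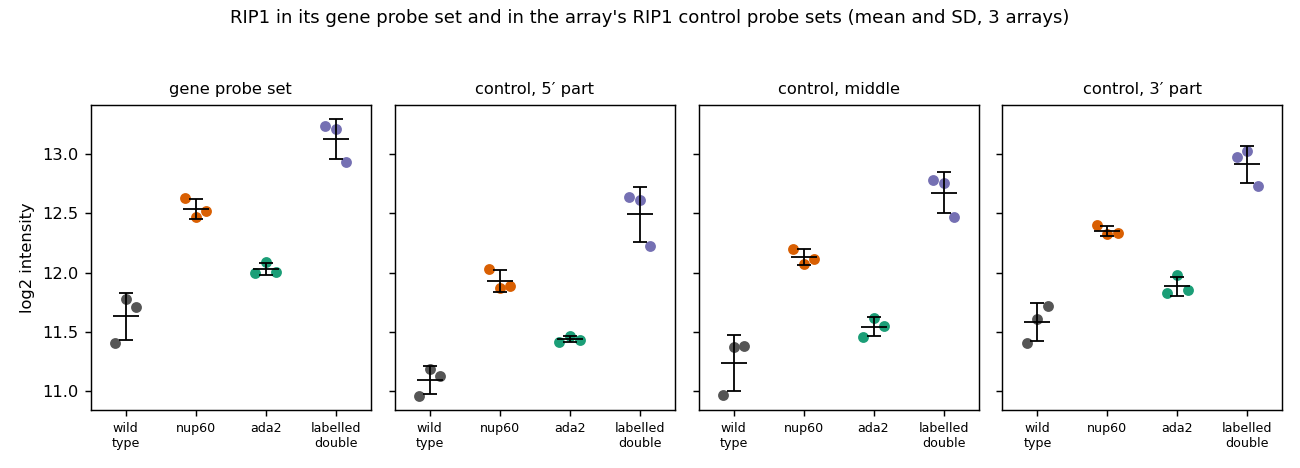
Log2 intensity of the 3 RIP1 control probe sets, for the beginning, middle and end of the transcript, and of the RIP1 gene probe set, with a point for each of the 12 arrays by group and lines at the mean and SD. In each probe set the group order is wild type, ada2, nup60, labelled double deletion.

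Cytochrome c, encoded by CYC1 in aerobic cells, was among the members that were lower in ada2 than in the wild type. Its levels were 12.33, 12.47 and 12.42 in the wild type, 11.77, 11.93 and 11.86 in ada2, 12.80, 12.58 and 12.63 in nup60, and 13.25, 13.18 and 13.07 in the labelled double deletion. The 4 groups did not overlap. CYC1 fell by 0.55 ± 0.069 in ada2 (limma adjusted p = 8.9e-05), the largest fall of the list, and rose by 0.26 ± 0.069 in nup60 (limma adjusted p = 0.00852). It rose by 0.76 ± 0.069 in the labelled double deletion.

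CYC7, the isoform of cytochrome c that predominates at low oxygen, moved differently. Its levels were 8.45, 8.30 and 8.30 in the wild type, 11.03, 11.05 and 10.83 in nup60, 9.86, 10.18 and 10.05 in ada2, and 11.78, 11.77 and 11.74 in the labelled double deletion. CYC7 rose by 2.62 ± 0.082 in nup60, by 1.68 ± 0.082 in ada2 and by 3.42 ± 0.082 in the labelled double deletion, more than any member in each. In ada2 the isoforms CYC1 and CYC7 thus moved in opposite directions. COX5B, the low-oxygen isoform of complex IV subunit V, rose by 0.85, 0.34 and 0.56 in these strains. Its aerobic counterpart COX5A, a member, rose by 0.24 in nup60 and 0.54 in the labelled double deletion, and did not pass in ada2 (limma adjusted p = 0.944). The paralogs of complex II anchors, SHH3 and SHH4, both rose in nup60, by 0.37 and 0.17, and neither passed in ada2. The SHH4 call in nup60 (limma adjusted p = 0.0467) was lost with centring, with a second quantile normalization, and on leaving out any one array other than wild-type array 3 and arrays 1 and 3 of the labelled double deletion. Without wild-type array 1 the SHH4 difference was 0.11 (limma adjusted p = 0.15).

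Complex IV, cytochrome c oxidase, was represented by its 8 nuclear-encoded members, since the subunits encoded in mitochondrial DNA were not analysed here. All 8 rose in nup60, between 0.24 and 0.49 with a median of 0.32, and all 8 rose in the labelled double deletion, between 0.40 and 1.39. COX4, a zinc-binding subunit, had levels of 12.13, 12.27 and 12.28 in the wild type, 12.33, 12.44 and 12.32 in ada2, 12.77, 12.68 and 12.70 in nup60, and 13.62, 13.60 and 13.62 in the labelled double deletion. The arrays of ada2 lay just above those of the wild type. COX4 rose by 0.49 ± 0.049 in nup60 and by 1.39 ± 0.049 in the labelled double deletion, the largest rises of the complex. Its ada2 difference of 0.14 ± 0.049 passed at a limma adjusted p of 0.0437. That call was lost on leaving out wild-type array 1 (0.09, limma adjusted p = 0.129), any one array of ada2 or nup60, or array 1 or 2 of the labelled double deletion.

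COX9, another small subunit of complex IV, fell in ada2. Its levels were 12.63, 12.62 and 12.60 in the wild type, 12.17, 12.45 and 12.19 in ada2, 12.92, 12.90 and 12.90 in nup60, and 13.07, 13.09 and 12.89 in the labelled double deletion. The nup60 arrays and those of the labelled double deletion overlapped. COX9 fell by 0.34 ± 0.073 in ada2 (limma adjusted p = 0.00307) and rose by 0.29 in nup60 and by 0.40 in the labelled double deletion, the smallest rise of the list there. In ada2, 5 other members of complex IV rose, and COX5A and COX8 did not pass. Without the arrays with high spike controls 3 rose, since COX4 and COX7 no longer passed, with 0.09 and 0.13. The COX7 call, 0.16 on all arrays, was lost without wild-type array 1 or 3, ada2 array 1 or 2, nup60 array 2, or array 1 of the labelled double deletion, with limma adjusted p from 0.0523 to 0.151.

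The ATP synthase showed the smallest median rise of any enzyme complex on the list in nup60. Of its 14 members, 13 rose there, with a median of 0.29, and all 14 rose in the labelled double deletion, with a median of 0.85. In ada2, 11 rose and 0 fell, with a median of 0.22, and ATP1, ATP20 and TIM11 did not pass. Without the arrays with high spike controls 13 rose, ATP1 with 0.17 and TIM11 with 0.10 among them, and with centring 13 rose as well. ATP1 also passed without wild-type array 1 alone. The ada2 call of ATP4, 0.17, was lost without wild-type array 2 or 3 or ada2 array 3. ATP7, a subunit of the peripheral stalk, had levels of 12.61, 12.73 and 12.67 in the wild type, 12.83, 12.93 and 12.81 in ada2, 13.27, 13.20 and 13.18 in nup60, and 13.89, 13.80 and 13.75 in the labelled double deletion. ATP7 had the largest rise of the enzyme in nup60, 0.55 ± 0.049 (limma adjusted p = 7.37e-06), and in the labelled double deletion, 1.15 ± 0.049. ATP17, a membrane subunit, rose by 0.33, 0.23 and 1.13 in nup60, ada2 and the labelled double deletion.

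ATP18, another membrane subunit, had levels of 12.75, 12.89 and 12.93 in the wild type, 13.12, 13.11 and 13.04 in nup60, 13.32, 13.40 and 13.30 in ada2, and 13.73, 13.74 and 13.66 in the labelled double deletion. Its ada2 arrays lay above its nup60 arrays. ATP18 rose by 0.48 ± 0.051 in ada2 and by 0.23 ± 0.051 in nup60, and the direct difference nup60 minus ada2 was -0.25 ± 0.051 (limma adjusted p = 0.00181). ATP20, which takes part in dimer formation of the enzyme, was the member that did not pass in nup60. Its levels were 12.56, 12.53 and 12.55 in the wild type and 12.70, 12.67 and 12.61 in nup60. These did not overlap, and the difference was 0.11 ± 0.045 (limma adjusted p = 0.0554). It passed without nup60 array 3, without ada2 array 2 or without array 3 of the labelled double deletion.

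The 3 small proteins that bind the ATP synthase when it would hydrolyse ATP rose in both single deletions. INH1, the inhibitor, had levels of 11.37, 11.43 and 11.23 in the wild type, 11.61, 11.71 and 11.57 in ada2, 12.65, 12.46 and 12.45 in nup60, and 13.57, 13.45 and 13.46 in the labelled double deletion. The groups did not overlap. INH1 rose by 0.29 ± 0.069 in ada2, by 1.18 ± 0.069 in nup60 (limma adjusted p = 2.18e-07) and by 2.15 ± 0.069 in the labelled double deletion (4.45-fold).

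STF1, a protein related to INH1, was the 1 member that doubled in ada2. Its levels were 11.29, 11.35 and 11.41 in the wild type, 12.37, 12.40 and 12.36 in ada2, 12.54, 12.53 and 12.50 in nup60, and 13.19, 13.13 and 13.06 in the labelled double deletion. STF1 rose by 1.03 ± 0.041 in ada2 (limma adjusted p = 1.66e-08), by 1.17 ± 0.041 in nup60 and by 1.77 ± 0.041 in the labelled double deletion. STF2, which stabilises the inhibited enzyme, was the 1 member with its highest level in nup60. Its levels were 11.45, 11.46 and 11.52 in the wild type, 11.67, 11.80 and 11.55 in ada2, 12.81, 12.84 and 12.69 in nup60, and 12.59, 12.57 and 12.66 in the labelled double deletion. STF2 rose by 1.30 ± 0.063 in nup60 (2.47-fold), by 0.20 ± 0.063 in ada2 and by 1.13 ± 0.063 in the labelled double deletion. The ada2 call of STF2 (limma adjusted p = 0.0267) was lost without wild-type array 1 or 2, or ada2 array 1 or 2, with limma adjusted p up to 0.101.

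**Figure D4:**
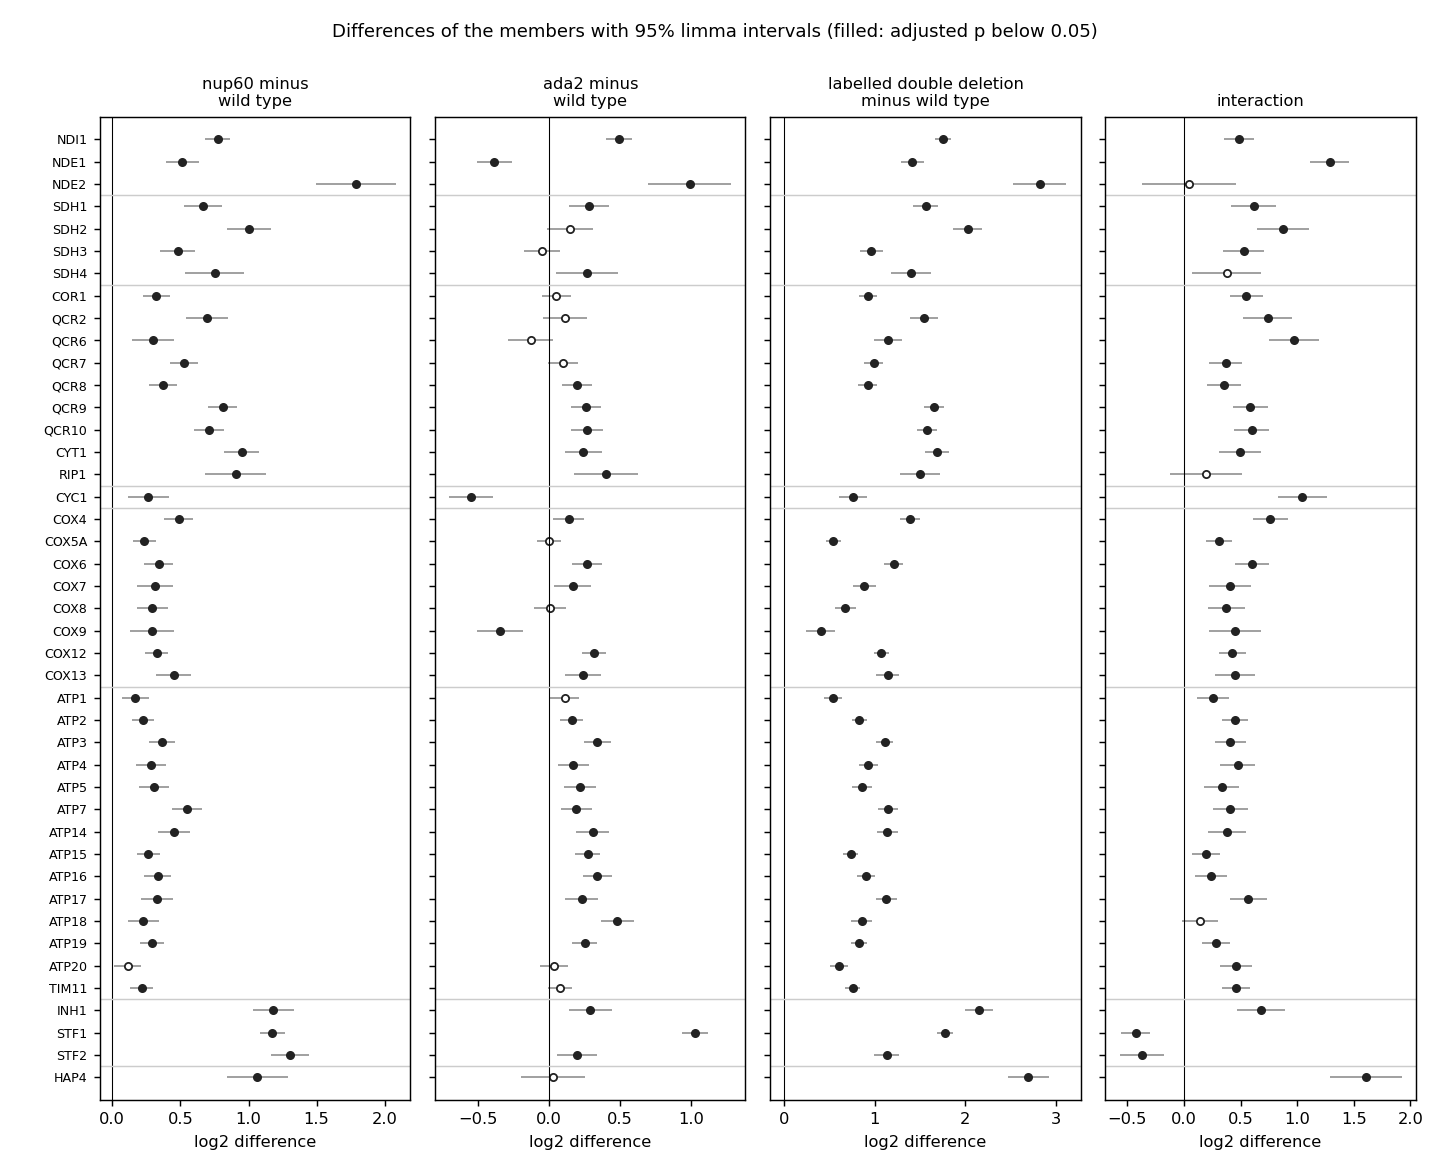
Log2 difference from the wild type for each of the 43 genes, ordered by role, in nup60, ada2 and the labelled double deletion, and the interaction, each panel with its own scale. Bars are 95% limma intervals and filled points passed. The labelled double deletion lies to the right of zero for every gene, while filled points for NDE1, CYC1 and COX9 lie to the left of zero in ada2.

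Set directly against ada2, the nup60 strain had higher levels for 29 members and a lower level for 1, ATP18, where 25.9% of all genes were higher and 26.9% were lower. The median difference was 0.28 for the members and -0.01 for all genes. The count without the arrays with high spike controls was 34 higher and 1 lower, where 32.8% of all genes were higher and 36.7% lower, so calls over all genes rose as well. All 3 NADH dehydrogenases, all 4 members of complex II, all 9 of complex III and CYC1 were higher in nup60, as were 5 of 8 members of complex IV. Of the 14 ATP synthase members 3 were higher, 1 was lower and 10 did not pass, with a median of 0.07. Of the 3, ATP14 did not pass without any one array of either strain, and TIM11 did not pass without nup60 array 1. Differences of at least 2-fold were those of 2 members, STF2, with 1.11 ± 0.063, and HAP4, where 2.97% of all genes reached them. That a member did not pass here does not show that its levels were the same.

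Against the nup60 strain, the labelled double deletion had higher levels for 41 members and a lower level for 1, where 33.1% of all genes were higher and 30.6% were lower. The 3 arrays of the labelled double deletion lay above all 3 of nup60 for 41 members, as for 38% of all genes. The median difference was 0.62, against 0.02 for all genes. The exceptions were COX9, with 0.11 (limma adjusted p = 0.218), and STF2. The STF2 difference of -0.17 ± 0.063 (limma adjusted p = 0.0324) did not pass without nup60 array 1 or 2, or without array 1 or 2 of the labelled double deletion, with limma adjusted p between 0.0773 and 0.112. Differences of at least 2-fold were found for 3 members, where 2.66% of all genes reached them. These were HAP4, with 1.63 ± 0.10, NDE2, with 1.03 ± 0.13, and SDH2, with 1.02 ± 0.074. Against the ada2 strain all 43 members were higher in the labelled double deletion, where 35.2% of all genes were higher and 33.9% were lower, with medians of 0.90 and 0.00. HAP4 had the largest of these differences, 2.67 ± 0.10. Neither count changed without the arrays with high spike controls, where 38.7% of all genes were higher than in nup60 and 40% higher than in ada2.

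The interaction measures how far the labelled double deletion departed from the sum of the single deletion differences on the log2 scale. For 37 members the level was above that sum and for 2 below it, where 20.6% of all genes were above and 18.5% below (39.2% in all). The member median was 0.45, against 0.02 for all genes. The split of all genes that passed was 1124 above and 1010 below, and with arrays centred on their medians it was 912 above and 1226 below. Among the members HAP4 had the largest departure, 1.60 ± 0.14 (limma adjusted p = 1.93e-05), which ranked 27th of all genes counted from the largest departure above the sum. It was followed by NDE1, with 1.29 ± 0.078, and CYC1, with 1.04 ± 0.098, both of which had fallen in ada2. The departures of QCR6, SDH2 and COX4 were 0.98, 0.88 and 0.76.

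The 2 members below the sum were the ATP synthase regulators STF1, with -0.43 ± 0.059, and STF2, with -0.37 ± 0.090, whereas INH1 was above it, with 0.68 ± 0.098. NDE2 departed by 0.05 (limma adjusted p = 0.857), RIP1 by 0.20, SDH4 by 0.38 and ATP18 by 0.14, and none of these passed. Without the arrays with high spike controls, 40 members were above the sum and 2 below, where 25.7% and 22.6% of all genes were, and RIP1, SDH4 and ATP18 passed with departures of 0.41, 0.58 and 0.22. ATP18 also passed without wild-type array 1 alone, and SDH4 without wild-type array 1 or without array 3 of the labelled double deletion.

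In the order of group means, 33 members ran from wild type through ada2 and nup60 to the labelled double deletion, an order found for 11.4% of all genes. This is an order of means, and not every step in it passed the test. Of all 43 members, 12 did not pass between ada2 and wild type, HAP4 and SDH2 among them. Between nup60 and ada2, 13 of the 43 did not pass. Another 6 members, NDE1, SDH3, QCR6, CYC1, COX5A and COX9, had the ada2 mean below that of the wild type, with nup60 and the labelled double deletion above, an order of 7.38% of all genes. For QCR6, SDH3 and COX5A the difference between the lowest neighbours in this order, ada2 and wild type, did not pass the test. ATP15, ATP16 and ATP18 had the ada2 mean above that of nup60, and for ATP15 and ATP16 that difference was -0.01 and did not pass. STF2 alone had its highest mean in nup60, an order of 1.87% of all genes.

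Related genes outside the member list were compared through 10 further lists of 158 genes, of which 149 were measured. Of 6 genes listed as other electron donors, URA1 of the pyrimidine pathway among them, 3 rose and 0 fell in nup60. In ada2 5 rose and 1 fell, and the labelled double deletion had the same counts. Over all genes 25.1% rose and 26.2% fell in nup60, 22.7% and 23% in ada2, and 36.1% and 37.1% in the labelled double deletion. These shares, on all arrays, also stand beside the all-array counts of the lists below. PUT1, proline oxidase, had levels of 9.20, 9.13 and 8.97 in the wild type, 9.38, 9.26 and 9.34 in ada2, 10.78, 10.81 and 10.63 in nup60, and 12.04, 11.91 and 11.94 in the labelled double deletion. It rose by 1.64 ± 0.069 in nup60, by 0.22 ± 0.069 in ada2 and by 2.86 ± 0.069 in the labelled double deletion. The ada2 call of PUT1 was lost without wild-type array 3 or ada2 array 1 or 3. CYB2, which oxidises lactate, rose by 1.05, 0.75 and 2.29, and GUT2, which oxidises glycerol phosphate, by 0.74, 0.40 and 1.42. URA1, a dihydroorotate dehydrogenase of the pyrimidine pathway, fell by 0.94 in the labelled double deletion, where URA3 of the same pathway was at a high level. URA1 was thus the 1 fall of this list there, and at 0.15 it was among the rises in ada2. These data do not show that it feeds electrons to the respiratory chain. The part of that marker in the URA1 value was not tested.

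Of 49 factors that assemble complexes II to V, 35 rose and 1 fell in nup60 with a median of 0.27, 6 rose and 11 fell in ada2 with a median of -0.03, and 33 rose and 5 fell in the labelled double deletion with a median of 0.24. Without the arrays with high spike controls 9 fell there. In the labelled double deletion these values ran from -0.61 for INA17, an ATP synthase assembly factor, to 1.02 for SCO2, a copper-binding protein of complex IV assembly. Ubiquinone synthesis genes rose in 8 of 11 cases in nup60 and in 8 of 11 in the labelled double deletion, with medians of 0.29 and 0.39. In ada2, 4 rose and 1 fell, with a median of 0.10, which was -0.04 without the arrays with high spike controls. Heme synthesis had 1 rise and 3 falls among 8 genes in nup60, 1 rise and 5 falls in ada2, and 2 rises and 5 falls in the labelled double deletion. There were 5 falls in nup60 without the arrays with high spike controls. For this count, and for that of the assembly factors without these arrays, no share of all genes is given. Calls over all genes rose as well there. HEM3, porphobilinogen deaminase, fell by 0.68 in nup60 and by 1.01 in the labelled double deletion, while HEM14, protoporphyrinogen oxidase, rose by 0.29, 0.60 and 0.70 in nup60, ada2 and the labelled double deletion.

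Of 33 genes for the import of proteins into mitochondria, 3 rose and 6 fell in nup60 with a median of -0.01, 3 rose and 9 fell in ada2, and 8 rose and 18 fell in the labelled double deletion with a median of -0.16. With those arrays of high spike controls left out, 10 fell in nup60 and 15 in ada2. Calls over all genes rose as well without these arrays, so these 2 counts do not compare the import genes with other genes. PAM18, a subunit of the import motor, fell by 0.88 in the labelled double deletion. Among 7 carriers of nucleotides, phosphate and the outer membrane, 4 rose and 2 fell in nup60, and 3 rose and 2 fell in ada2. In the labelled double deletion 5 rose and 2 fell. PET9, the main ADP/ATP carrier, rose by 0.34, 0.24 and 0.79 in nup60, ada2 and the labelled double deletion. MIR1, the phosphate carrier, rose by 0.44, 0.32 and 0.98. The largest rises of this list, 0.98 in ada2 and 1.34 in the labelled double deletion, were those of neither gene. AAC3, the ADP/ATP carrier isoform of low-oxygen growth, went the other way. Its levels were 10.69, 10.75 and 10.78 in the wild type, 9.69, 9.71 and 9.82 in nup60, and 9.15, 9.24 and 9.22 in the labelled double deletion, falls of 1.0 and 1.53.

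**Figure D5:**
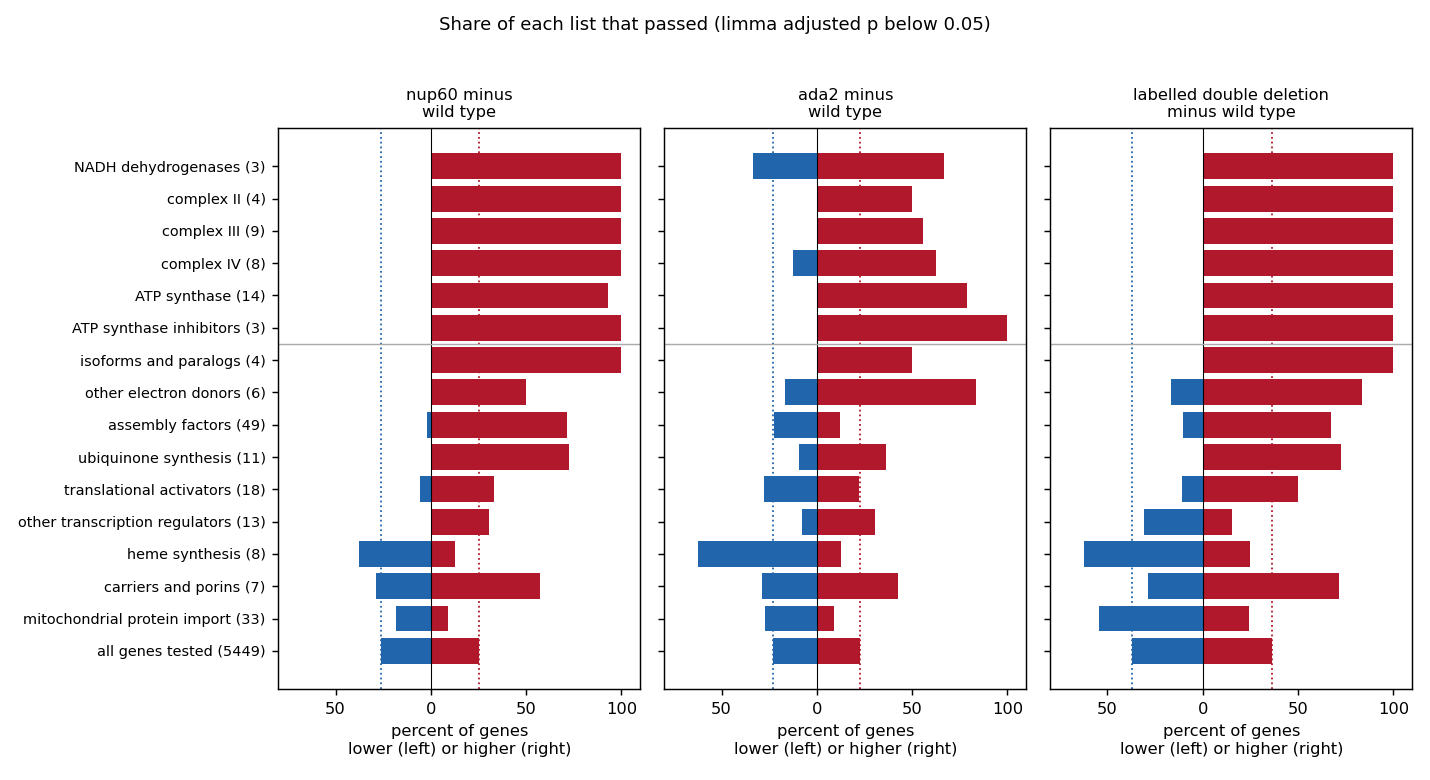
Share of the genes of each list that rose or fell against the wild type at a limma adjusted p below 0.05, for nup60, ada2 and the labelled double deletion, with the share among all genes tested as dotted lines and list sizes in brackets. The roles held by CYC1 and HAP4 alone, and the subunits that were not analysed, are not shown. In nup60 each role of the members shown exceeds the share of all genes that rose, while the import genes are below it.

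Among 18 translational activators and RNA processing factors of mitochondrially encoded subunits, 6 rose and 1 fell in nup60, 4 rose and 5 fell in ada2, and 9 rose and 2 fell in the labelled double deletion. NCA3, which acts on the mitochondrial message of ATP synthase subunits, had levels of 9.22, 9.10 and 9.06 in the wild type, 12.18, 12.22 and 12.10 in nup60, 7.35, 7.06 and 7.58 in ada2, and 9.82, 9.44 and 9.33 in the labelled double deletion. It rose by 3.04 ± 0.14 in nup60 and fell by 1.80 ± 0.14 in ada2, opposite directions with no overlap, and its 0.40 in the labelled double deletion lay between them. That 0.40 passed, but was 0.11 and did not pass after a second quantile normalization, and did not pass without wild-type array 2 or 3 or array 1 of the labelled double deletion. The 8 listed subunits encoded in mitochondrial DNA were not analysed here.

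The genes next to the members on the chromosomes were counted in the same way. Of 81 such neighbours that were measured and were no members themselves, 15 rose and 21 fell in nup60 (18.5% and 25.9%, against 25.1% and 26.2% of all genes), with a median of -0.02. In ada2, 15 rose and 16 fell (18.5% and 19.8%, against 22.7% and 23%). In the labelled double deletion 28 rose and 31 fell (34.6% and 38.3%, against 36.1% and 37.1%), with a median of -0.03. No member had another member as its neighbour, and HAP4 lies between KTI12 and SLD2.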

How the data were processed

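The deposited values were linear intensities per probe set on 12 arrays. The authors made them by RMA in Affymetrix Expression Console 1.1, per the submitters' processing notes. Per the labels' protocols, cells were broken with glass beads in TRIzol, and 5 µg of total RNA was biotin-labelled. RMA scales arrays to a common distribution, so a difference is relative to all transcripts. The design had assumed log2 values, and log2 of the deposited intensity was taken here, with no further normalization. The raw scans were not used here. Of 10928 probe sets, 213 controls, 1746 for S. pombe, 3470 with no gene named and 1 with several genes were left out, and 5498 stood for 5449 genes. For 47 genes with more than 1 probe set, that of the highest mean was used. Symbols and neighbours came from a RefSeq gene table. The file named no genome build and no coordinates or sequences are given.

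All genes were fitted with limma 3.58.1 in R 4.3.3, with 4 group means (8 residual and 2.58 prior degrees of freedom), in 7 comparisons. P-values were adjusted by Benjamini-Hochberg over all genes within each, and 0.05 was the threshold. Only 3 arrays a group limit the precision. The members and the other gene lists were chosen with earlier results of these data known. By rule, the text names HAP4, the inhibitors, the member with the largest difference of each role, members against the majority, and members that did not pass where over 3 in 4 did. From other lists it names up to 4 genes with the largest differences that passed. NDI1 and single genes given to complete a count or a contrast between isoforms were added after their values were seen. Replicate numbers did not pair samples: of 18 pairs of same-numbered arrays in different groups, 4 had deviations correlated above 0.1, in a range from -0.73 to 0.37. Alternatives were centring, a second quantile normalization, filters, moderation settings, array weights, other probe set rules, a replicate block, and leaving out arrays. The procedure was also run on simulated data with independent noise and few genes changed, in a single group. That setting differs from these data, where many genes were called and some arrays stood apart, so no result here rests on it. Figures were made with Python 3.11.15.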

Additional observations from a re-analysis of the deposited data

Results flagged for a closer look

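At a limma adjusted p below 0.05, 39 of 43 members departed from the sum of the single deletion differences in the labelled double deletion. The same was true of 39.2% of all genes. The departures are log2 values, and each rests on the group with the URA3 and mating-type signals that went against its labels, whose part in the departures was not tested. HAP4, the activator, departed by 1.60. Among the NADH dehydrogenases the departure was 0.49 for NDI1 and 1.29 for NDE1. In complex II it was 0.62 for SDH1, 0.88 for SDH2 and 0.53 for SDH3. In complex III it was 0.55 for COR1, 0.74 for QCR2, 0.98 for QCR6, 0.37 for QCR7 and 0.35 for QCR8, and 0.58 for QCR9, 0.60 for QCR10 and 0.49 for CYT1. Cytochrome c, CYC1, departed by 1.04. In complex IV it was 0.76 for COX4, 0.31 for COX5A, 0.60 for COX6 and 0.40 for COX7, and 0.37 for COX8, 0.45 for COX9, 0.43 for COX12 and 0.45 for COX13. In the ATP synthase it was 0.26 for ATP1, 0.45 for ATP2, 0.41 for ATP3, 0.48 for ATP4, 0.33 for ATP5, 0.41 for ATP7 and 0.38 for ATP14, and 0.19 for ATP15, 0.23 for ATP16, 0.57 for ATP17, 0.29 for ATP19, 0.46 for ATP20 and 0.46 for TIM11. Of the inhibitor proteins INH1 departed by 0.68, while STF1 and STF2 lay below the sum, at -0.43 and -0.37. The departure of ATP15 did not pass with centring or without nup60 array 3.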

How the results depend on the processing

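No member median, and no named member that passed, turned its direction under the alternatives run, but some medians of other lists close to 0 did. For heme synthesis the labelled double deletion minus ada2 went from 0.01 to -0.04 with centring and -0.01 with a second quantile normalization, and the interaction went from 0.00 to -0.05 and -0.07. For ubiquinone synthesis the interaction went from 0.02 to -0.03 with centring. Over all genes the split of the interaction turned from 1124 above and 1010 below to 912 above and 1226 below with centring. The member median moved beyond the spread between arrays in 3 cases, to 1.08 with array weights in the labelled double deletion minus wild type, and with centring to 0.85 for the labelled double deletion minus ada2 and to 0.40 for the interaction. Leaving out 1 array at a time gave 42 to 43 members higher in nup60, 24 to 28 higher and 3 to 4 lower in ada2, 43 higher in the labelled double deletion, and 36 to 39 above and 2 below the sum in the interaction. Against nup60, the labelled double deletion had 41 members higher and 0 to 1 lower. For nup60 minus ada2 there were 27 to 31 higher. With the replicate block, although the numbers do not pair the samples, 25 members were higher in ada2, and the COX4 and SDH4 differences of 0.14 and 0.27 there did not pass. The block gave 42 higher in nup60, 43 in the labelled double deletion and 37 above the sum. Shares of all genes with 1 array left out or with the block are not given here. These counts therefore do not compare the members with other genes. For the 19 members named by rule, 2545 of 2603 values under alternatives kept their direction and side of the threshold, 26 came to pass and 32 no longer passed. The interaction could not be fitted to only the groups compared, since it uses all 4. All 43 members were above background on every array. NDE2 came closest, with wild-type arrays from 6.20 to 6.71 against a background of 5.62, and the effect of this on its differences was not tested.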
